A study of Mus musculus with 10 samples.

Results

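The genes described here are 38 enzymes and core subunits that set or remove histone methylation and acetylation, listed by symbol. A gene was taken as measured where a probe set of the array was annotated to its symbol alone, and its brightest probe set stood for it. Of the 38, 37 were measured, out of 19935 genes with such a probe set, and all 37 lay above the level below which probe sets were left out as dim. The H3K9 methyltransferase gene Suv39h1 had no such probe set and is not analysed here. Kmt2d, Setd1b, Eed and Setd2 had more than 1 probe set.

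Histone tails carry marks that are set by enzymes called writers, removed by erasers and bound by readers. Methylation of lysine 4 of histone H3 (H3K4) marks active promoters and enhancers and is set by the KMT2 and SETD1 enzymes, which need a shared core of subunits. Polycomb proteins methylate H3K27 and keep developmental genes silent, while methylation of H3K9 marks other silent chromatin and acetylation accompanies active genes. Pygo2, the gene disrupted in the mutant mice, encodes a reader: its PHD finger binds methylated H3K4 and links it to Wnt-dependent transcription. In the mammary gland Bmi1 and Ezh2 are known for their part in the maintenance of stem and progenitor cells.

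Total RNA came from mammary epithelial cells of virgin female littermates aged 8 to 12 weeks, either control or Pygo2 SSKO, after removal of cells positive for CD31, CD45 or TER119. The strain is not given in the labels, which also leave SSKO unexplained and name neither a promoter nor a Cre driver. The mutant cells are titled Pygo2-null. Basal here means the sorted CD29-high, CD24-positive population, which holds stem cells and basal cells together. Luminal means the mature luminal sort, CD24-positive with low CD29 and without CD61. Control basal cells gave 4 arrays, SSKO basal cells 3 and luminal cells of control mice 3, labelled as biological replicates without the number of animals in each, so that p-values reflect only how far these samples differ, which may be technical. All values are log2(intensity + 16), which understates changes of dim genes, and a difference of levels in bulk RNA cannot tell fewer expressing cells from less RNA per cell. A gene was called where its adjusted p lay under 0.05 in a limma fit to 15815 genes.

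The sorted populations carried the markers of their names. All 15 basal and myoepithelial markers measured were lower in luminal arrays, and 13 of 14 mature luminal markers measured were higher. Of 13 luminal progenitor and alveolar markers measured, 6 were called higher in luminal than in control basal arrays and 2 lower. Those are 46.2% and 15.4%, against 24.6% and 19.7% of all genes. Of 8 pericyte markers measured, 1 was called higher in luminal arrays and 6 lower. The mean log2 level of the basal markers was 12.50 to 12.62 in control basal arrays and 12.45 to 12.58 in SSKO basal arrays. It was 8.41, 7.94 and 9.86 in luminal arrays 1 to 3, so luminal array 3 stood nearest to the basal arrays. The mature luminal markers had a mean level of 9.54 to 9.95 in control basal, 10.18 to 10.47 in SSKO basal and 12.70 to 12.72 in luminal arrays, so SSKO basal arrays lay above control basal arrays without overlap. Markers of fibroblasts were brighter in basal arrays, with a mean level of 9.64 to 10.99 in control basal, 9.44 to 10.09 in SSKO basal and 7.33 to 7.79 in luminal arrays. Markers of endothelial cells were uneven among basal arrays, at 9.72, 8.29, 8.71 and 8.57 in control arrays 1 to 4 and at 10.62, 8.20 and 9.67 in SSKO arrays 1 to 3. Pygo2 itself was 8.11 to 9.09 in control basal, 5.86 to 6.99 in SSKO basal and 7.90 to 8.53 in luminal arrays, so it was lower in each SSKO array than in any other. Whether its probe set lies in the deleted part is not known here, and the SSKO mean of 6.26 lay under the level of dim probe sets, 6.74.

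The comparison of luminal with basal cells of control mice asked how the enzymes are divided between both epithelial layers. Of the 37 members, 11 were higher and 5 lower in luminal cells. The higher members were Bmi1, Ezh1, Ehmt2, Kdm4c, Kat2b, Kdm4a, Ehmt1, Kdm6a, Kdm5c, Setd1b and Kdm4b, and the lower members were Kdm6b, Men1, Ezh2, Wdr5 and Kdm2b. The 16 called members are 43.2% of the set, close to the 44.3% of all 15815 genes called in this comparison. Luminal and control basal values did not overlap for 18 members, or 48.6%, against 46.3% of all genes. By direction, 29.7% of members were higher against 24.6% of all genes, and 13.5% were lower against 19.7%. The median member difference was 0.19 against 0.07 for all genes, and the median size of the difference, whatever its sign, was 0.33 against 0.37. After quantile normalization the called members were 8 higher and 6 lower, or 57.1% higher in place of 68.8%.

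**Figure D1:**
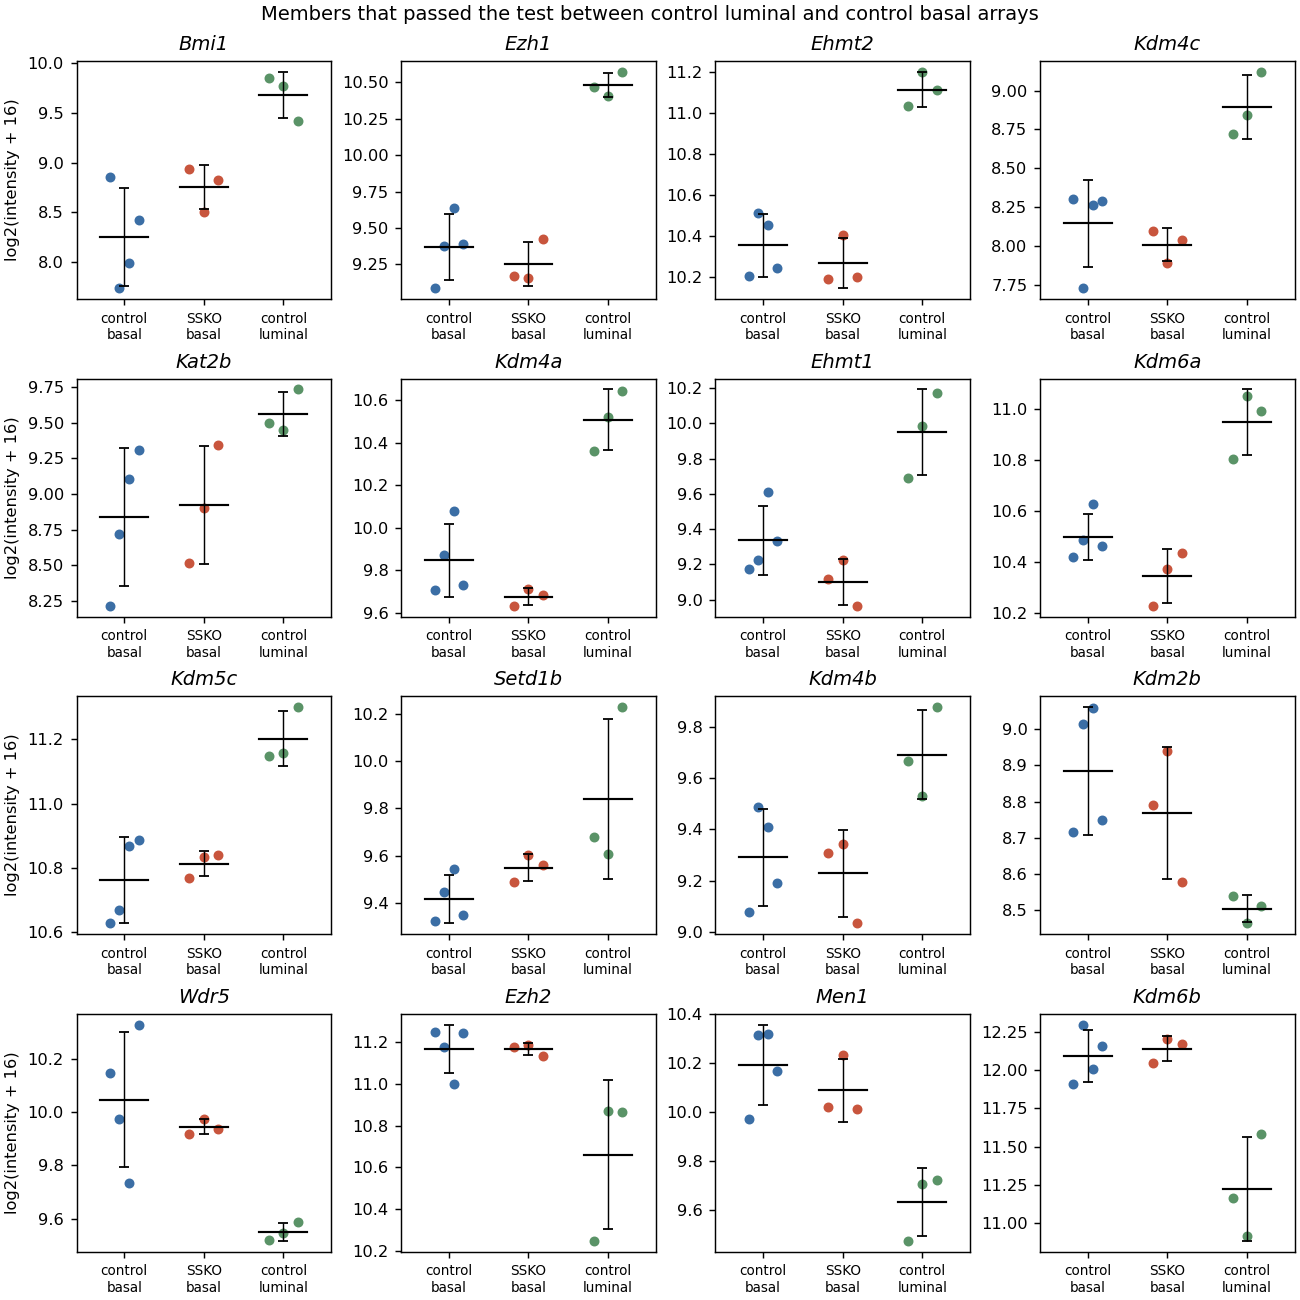
Log2(intensity + 16) on the vertical axis of the 16 members that passed the test between control luminal and control basal arrays, by group on the horizontal axis; points are arrays, horizontal lines are means and error bars are SD over 4, 3 and 3 arrays, and each panel has its own scale, which does not start at 0. The first 11 panels are higher in luminal arrays, with Bmi1 at 9.42 to 9.85 in luminal and 7.74 to 8.86 in control basal arrays, and the last 5 are lower.

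The Polycomb genes Bmi1 and Ezh1 had the largest luminal differences of the members, and Ezh2 was called in the opposite direction. Bmi1, a subunit of Polycomb repressive complex 1, measured 8.86, 7.74, 8.00 and 8.42 on the log2 scale in control basal arrays 1 to 4, and 9.85, 9.77 and 9.42 in luminal arrays 1 to 3. All luminal values lay above all control basal values, and Bmi1 was higher in luminal cells by 1.43 (SE 0.24, limma adjusted p = 5.62e-04), or 2.69-fold. Ezh1, an alternative H3K27 methyltransferase of Polycomb repressive complex 2, was 9.09, 9.37, 9.64 and 9.39 in control basal and 10.47, 10.41 and 10.57 in luminal arrays. It was higher in luminal cells by 1.11 (SE 0.14, limma adjusted p = 7.38e-05), or 2.16-fold, with no overlap. Its counterpart Ezh2, the form typical of dividing cells, was 11.25, 11.18, 11.00 and 11.24 in control basal and 10.25, 10.87 and 10.86 in luminal arrays. Ezh2 was lower in every luminal array than in any basal array, with a difference of -0.51 (SE 0.16, limma adjusted p = 0.0215). Luminal array 1 held the lowest Ezh2 value, and without it the difference was -0.30 and the call ended (adjusted p = 0.0962). The shared subunits of the complex did not pass the test. Suz12 differed by 0.07 (adjusted p = 0.757) and Eed, which binds the methylated tail, by -0.06 (adjusted p = 0.799).

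Ezh2 is also a gene of proliferating cells, so levels of 24 measured proliferation genes stand beside it. Their mean log2 level was 9.58, 7.59, 8.91 and 9.13 in control basal arrays 1 to 4, 8.55, 8.67 and 8.88 in SSKO arrays 1 to 3, and 8.00, 9.69 and 8.80 in luminal arrays 1 to 3. The groups overlapped and the arrays of each control group differed widely. Called between luminal and control basal cells were 3 of the 24, or 12.5%, against 44.3% of all genes. Mcm6 at 0.87 and Aurka at 0.53 were higher, and Pcna was lower, at -0.86. The Mcm6 call ended without control basal array 2, 3 or 4 or luminal array 2 or 3. Luminal array 1 was lowest of the luminal arrays for Ezh2 and for the proliferation genes, whereas control basal array 2 was lowest of all arrays for the proliferation genes with Ezh2 at 11.18. The part of proliferation in the Ezh2 difference was not tested.

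Promoters of Ezh1, Ezh2 and Bmi1 are shown because these genes of linked complexes moved in different directions. Each window runs from 250 bases before to 50 bases after the annotated start, in the direction of the gene, from RefSeq on GRCm38.p6. Ezh1 lies on the minus strand at chr11:101226414-101226713, Ezh2 on the minus strand at chr6:47594981-47595280 and Bmi1 on the plus strand at chr2:18676768-18677067. Capitals mark matches on either strand to any of 6 motifs, and overlapping matches run together.
Ezh1: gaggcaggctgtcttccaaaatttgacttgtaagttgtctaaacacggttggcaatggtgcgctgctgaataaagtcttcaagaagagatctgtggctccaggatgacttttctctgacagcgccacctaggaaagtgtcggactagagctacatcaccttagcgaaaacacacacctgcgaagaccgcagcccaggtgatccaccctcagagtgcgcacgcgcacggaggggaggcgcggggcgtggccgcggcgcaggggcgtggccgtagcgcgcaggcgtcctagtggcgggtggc
Ezh2: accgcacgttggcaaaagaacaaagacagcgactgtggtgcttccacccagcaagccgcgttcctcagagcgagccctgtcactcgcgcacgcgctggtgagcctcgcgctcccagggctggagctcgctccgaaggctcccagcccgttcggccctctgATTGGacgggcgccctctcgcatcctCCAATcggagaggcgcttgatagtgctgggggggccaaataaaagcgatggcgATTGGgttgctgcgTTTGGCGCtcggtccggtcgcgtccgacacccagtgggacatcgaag
Bmi1: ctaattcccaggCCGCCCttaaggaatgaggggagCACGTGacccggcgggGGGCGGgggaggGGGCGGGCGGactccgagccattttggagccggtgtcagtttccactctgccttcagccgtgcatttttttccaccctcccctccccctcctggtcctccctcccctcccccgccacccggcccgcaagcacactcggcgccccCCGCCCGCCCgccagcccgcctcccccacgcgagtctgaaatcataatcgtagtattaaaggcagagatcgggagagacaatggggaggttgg

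The motifs searched were the E2F-type motifs TTTGGCGC and TTTCCCGC, the E-box CACGTG, the CCAAT box, the GC box GGGCGG and the cyclic AMP response element TGACGTCA. The Ezh2 window held 1 match to TTTGGCGC, at position 254 of the printed window, and 3 CCAAT boxes. TTTGGCGC stood in 0.514% of 32851 promoters of the same length, and among the 29 members with a promoter in the table in Ezh2 alone. TTTCCCGC stood in 1.07% of promoters and, among members, in Suz12 alone. The Bmi1 window held 6 GC boxes, some of them overlapping, and 1 E-box, and the Ezh1 window held none of the 6 motifs. CCAAT boxes were found in 11 of 29 members and in 37.4% of promoters, GC boxes in 19 of 29 members and in 35.7%, and E-boxes in 4 of 29 members and in 7.15%. A member counted where any of its promoters matched, whereas the percentages are of single promoters, so the 2 are not like for like. No member promoter held TGACGTCA, found in 1.79% of promoters. The 40 promoters of the 29 members had a median of 27.5 CG dinucleotides against 7 over all promoters in the table.

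The enzymes that remove H3K27 methylation also went opposite ways. Kdm6a (UTX), an X-linked demethylase that also belongs to the KMT2C and KMT2D complexes, was 10.42, 10.49, 10.62 and 10.46 in control basal and 10.80, 11.05 and 10.99 in luminal arrays. It was higher in luminal cells by 0.45 (SE 0.11, limma adjusted p = 0.00724), with no overlap. Kdm6b (JMJD3), a demethylase gene induced by stress and inflammatory signals, was 11.91, 12.30, 12.01 and 12.16 in control basal and 11.16, 10.92 and 11.59 in luminal arrays. It was lower in luminal cells, with the most negative difference of any member, -0.87 (SE 0.16, limma adjusted p = 0.00107), or 1.83-fold. Luminal array 3, the luminal array with the highest basal marker level, was nearest to the basal arrays for Kdm6b. Without that array the difference of Kdm6b was -1.05 (adjusted p = 2.42e-04).

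Among the H3K4 methyltransferases most differences were small. Setd1b alone was called, at 9.32, 9.45, 9.54 and 9.35 in control basal and 9.68, 9.61 and 10.23 in luminal arrays, a difference of 0.42 (SE 0.15, limma adjusted p = 0.0415). This rested on luminal array 3, without which the difference fell to 0.23 (adjusted p = 0.162). The call also ended without control basal array 1, 2 or 4 or any SSKO array, with adjusted p between 0.0554 and 0.0854. A dimmer probe set of Setd1b, not tested by itself, was 8.92, 9.10, 9.08 and 9.07 in control basal arrays. In luminal arrays it was 9.35, 9.29 and 10.06, again brightest in array 3. Its relative Setd1a, the catalytic subunit of a parallel complex, had a difference of -0.30 that did not pass (adjusted p = 0.0642). Setd1a did pass without luminal array 3 (-0.38, limma adjusted p = 0.0405) and after quantile normalization (-0.36, 0.0306), among other settings. The KMT2 enzymes did not pass. Kmt2a, the MLL gene of leukaemia translocations, differed by -0.23, Kmt2b by 0.22, and Kmt2c and Kmt2d, which methylate H3K4 at enhancers, by -0.17 and 0.11, with adjusted p from 0.225 to 0.58.

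The subunits shared by these complexes split by direction. Wdr5, a scaffold of the core that holds the enzyme and the histone tail, was 10.15, 9.98, 9.74 and 10.33 in control basal and 9.52, 9.55 and 9.59 in luminal arrays. It was lower in luminal cells, without overlap, at a difference of -0.50 (SE 0.14, limma adjusted p = 0.0125). Men1, which encodes menin and ties KMT2A and KMT2B to chromatin, was 9.97, 10.31, 10.32 and 10.17 in control basal and 9.47, 9.71 and 9.72 in luminal arrays. The luminal values were again all lower, and the difference was -0.56 (SE 0.13, limma adjusted p = 0.00436). The other core subunits had positive differences that did not pass. They were 0.53 for Dpy30 (adjusted p = 0.0641), 0.36 for Ash2l (adjusted p = 0.114) and 0.33 for Rbbp5 (adjusted p = 0.0575). Dpy30 and Ash2l passed without control basal array 1 (0.71 and 0.47, adjusted p = 0.00781 and 0.039), as did Rbbp5 (0.39, adjusted p = 0.033), and Dpy30 also passed without luminal array 3 (0.70, adjusted p = 0.0294).

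All 4 H3K4 demethylases had positive luminal differences, and 1 passed. Kdm5c, an X-linked eraser of H3K4 methylation, was 10.63, 10.67, 10.87 and 10.89 in control basal and 11.15, 11.16 and 11.30 in luminal arrays. The groups did not overlap, and Kdm5c was higher in luminal cells by 0.44 (SE 0.11, limma adjusted p = 0.00764). The differences of Kdm5a, Kdm5b and Kdm1a (LSD1, which removes the lower methylation states) were 0.19, 0.19 and 0.21, with adjusted p of 0.268, 0.302 and 0.337.

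Of the 3 measured H3K9 methyltransferases 2 were higher in luminal cells. Ehmt1 and Ehmt2 encode the partner methyltransferases GLP and G9a, which act as a heterodimer. Ehmt2 was 10.21, 10.51, 10.45 and 10.24 in control basal and 11.03, 11.20 and 11.11 in luminal arrays and was higher by 0.76 (SE 0.12, limma adjusted p = 3.88e-04), or 1.69-fold. Ehmt1 was 9.17, 9.22, 9.61 and 9.33 in control basal and 9.69, 9.99 and 10.17 in luminal arrays and was higher by 0.61 (SE 0.15, limma adjusted p = 0.00639), or 1.53-fold. In each gene the luminal arrays lay above every basal array. Setdb1, the H3K9 methyltransferase of retroelement silencing, did not pass, at -0.15 (adjusted p = 0.36).

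All 3 KDM4 demethylases, which act on methylated H3K9 and H3K36, were called higher. Kdm4a was 9.71, 9.87, 10.08 and 9.73 in control basal and 10.36, 10.52 and 10.65 in luminal arrays, a difference of 0.66 (SE 0.13, limma adjusted p = 0.00124). Kdm4c was 8.30, 7.73, 8.27 and 8.29 in control basal and 8.72, 8.84 and 9.12 in luminal arrays, a difference of 0.75 (SE 0.16, limma adjusted p = 0.00304). Kdm4b, a demethylase gene known as a partner of the oestrogen receptor, was 9.08, 9.49, 9.41 and 9.19 in control basal and 9.67, 9.53 and 9.88 in luminal arrays. The luminal values of all 3 genes lay above the control basal values, although for Kdm4b the gap was narrow and the difference was 0.40 (SE 0.14, limma adjusted p = 0.0423). The Kdm4b call ended without control basal array 1 or 4, SSKO array 1 or 2, or luminal array 1 or 3, with differences of 0.31 to 0.41 and adjusted p of 0.0536 to 0.149.

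The H3K36 demethylase Kdm2b, which also targets a Polycomb complex to CpG islands, was 8.72, 9.01, 9.06 and 8.75 in control basal and 8.54, 8.46 and 8.51 in luminal arrays. Every luminal value was lower, and the difference was -0.38 (SE 0.13, limma adjusted p = 0.0363). The call ended without control basal array 2 or 3, SSKO array 1 or any luminal array, with differences of -0.40 to -0.32 and adjusted p of 0.0511 to 0.105. Its relative Kdm2a differed by 0.02 (adjusted p = 0.89). The remaining lysine methyltransferases did not pass. Setd2, the enzyme of H3K36 trimethylation, differed by -0.20, Nsd1, which sets lower methylation of the same residue, by 0.21, and Dot1l, the H3K79 methyltransferase, by 0.01, with adjusted p of 0.207, 0.16 and 0.955.

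Of the acetyltransferases only Kat2b (PCAF) was called. It was 8.22, 8.72, 9.10 and 9.31 in control basal and 9.50, 9.45 and 9.73 in luminal arrays. Control basal values spread over more than the difference between groups, which was 0.72 (SE 0.26, limma adjusted p = 0.0413). Leaving out control basal array 1 or 2, SSKO array 2 or any luminal array ended the call, with differences of 0.51 to 0.78 and adjusted p of 0.0544 to 0.121. The related Kat2a (GCN5) and the broad co-activators Ep300 and Crebbp had differences of -0.14, -0.24 and -0.28, with adjusted p of 0.446, 0.169 and 0.123. Crebbp passed without luminal array 3 (-0.42, limma adjusted p = 0.0268) and with array weights (-0.38, 0.0273). Ep300 passed with the endothelial marker level as a covariate (-0.33, limma adjusted p = 0.0323).

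Luminal cells were also set against SSKO basal cells, in the same fit and with the same luminal arrays, so that both sets of luminal values share those arrays. Here 13 members were higher and 3 lower in luminal cells, 16 of 37 against 42.3% of all genes, with 23.3% of all genes higher and 19.0% lower. After quantile normalization they were 10 higher and 5 lower, or 66.7% higher in place of 81.2%. The members called against both basal groups numbered 12, or 75% of the 16 called against control basal and 75% of the 16 called against SSKO basal cells. Of 37 members, 35 had the same sign in both. The same shares were not computed over all genes, so they are not read as a trait of the members. Differences against SSKO basal cells were 1.23 for Ezh1, 0.92 for Bmi1, 0.89 for Kdm4c, 0.85 for Ehmt2, 0.85 for Ehmt1, 0.83 for Kdm4a and 0.60 for Kdm6a. Kdm4b and Kdm5c were higher by 0.46 and 0.39. On the lower side differences were -0.92 for Kdm6b, -0.50 for Ezh2 and -0.45 for Men1. Single arrays ended 5 of these calls. Ezh2 lost its call without luminal array 1 or any SSKO array, Kdm5c without luminal array 3 or any SSKO array, and Kdm4b without luminal array 1 or 3 or SSKO array 1 or 3. Bmi1 and Men1 lost theirs without luminal array 1 or SSKO array 2. Setd1b, Wdr5, Kdm2b and Kat2b were called against control basal cells and missed the threshold against SSKO basal cells, with differences of 0.29, -0.39, -0.27 and 0.64 and adjusted p of 0.187, 0.0523, 0.165 and 0.0877.

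Kdm5a, Kdm5b, Nsd1 and Rbbp5 were called against SSKO basal cells and not against control basal cells. Kdm5a was 9.67, 9.76 and 9.47 in SSKO basal and 10.14, 10.21 and 10.13 in luminal arrays, a difference of 0.53 (SE 0.13, limma adjusted p = 0.00737). Kdm5b was 10.56, 10.77 and 10.77 in SSKO basal and 10.96, 11.10 and 11.32 in luminal arrays, a difference of 0.42 (SE 0.15, limma adjusted p = 0.0355). Nsd1 was 10.05, 10.07 and 9.91 in SSKO basal and 10.33, 10.54 and 10.41 in luminal arrays, a difference of 0.42 (SE 0.12, limma adjusted p = 0.0139). Luminal values lay above the SSKO values in each of these genes. Rbbp5 was 8.66, 8.91 and 8.80 in SSKO basal and 9.13, 9.18 and 9.17 in luminal arrays, and its call was at the threshold with 0.37 (SE 0.14, limma adjusted p = 0.0494). Of these 4 only Kdm5a kept its call whichever array was left out. Kdm5b lost it without any SSKO array or luminal array 2 or 3, Nsd1 without SSKO array 3 or luminal array 2, and Rbbp5 without control basal array 2 or 4 or any SSKO or luminal array.

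**Figure D2:**
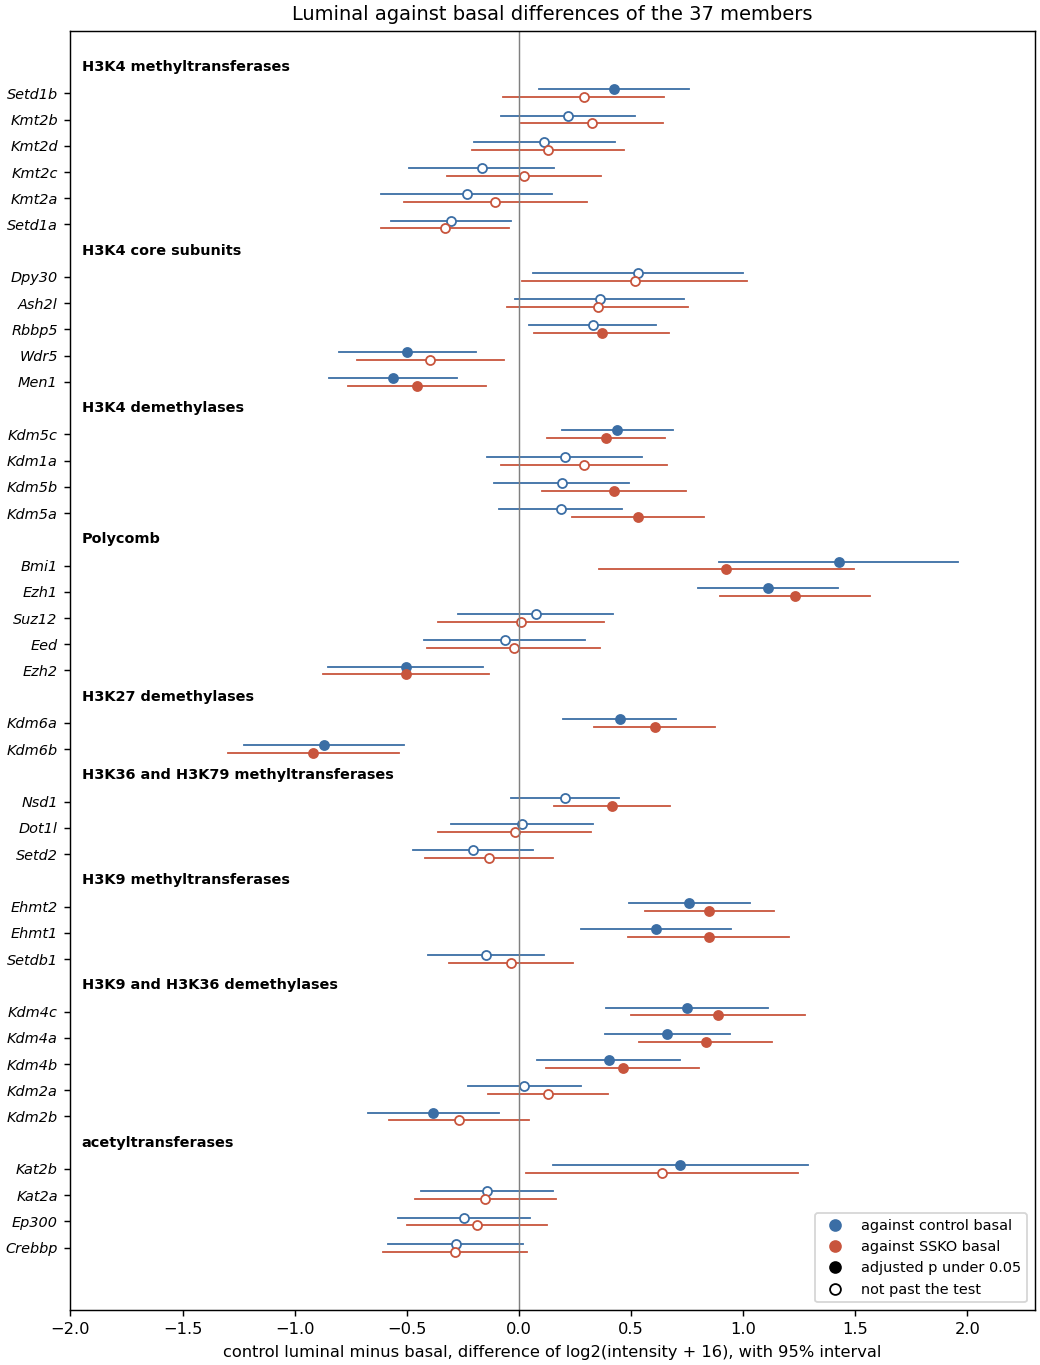
Difference of log2(intensity + 16), control luminal minus basal, on the horizontal axis for the 37 members grouped by role on the vertical axis; blue is against control basal and red against SSKO basal arrays, lines are 95% intervals of the limma fit and filled points passed the test. Bmi1 and Ezh1 lie farthest to the right, at 1.43 and 1.11 against control basal arrays, and Kdm6b farthest to the left, at -0.87.

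Setting SSKO beside control basal cells asks whether loss of the H3K4 reader went with altered expression of the enzymes that set and remove histone marks. None of the 37 members passed (limma, 0 at adjusted p under 0.05 against 0.0379% of all genes, and 1 at an unadjusted p under 0.05 against 3.03%). Differences lay between -0.35 for Kdm5a and 0.50 for Bmi1, and 25 members were below 0 and 12 above it, whereas 52.1% of all genes were above 0. The median was -0.07 against 0.01 for all genes, and the all-gene median was -0.01 with the dimmest 50% of probe sets left out. Members were mostly bright, 36 of 37 with a mean level above the median of all genes. The share below 0 was not computed over genes of like brightness. Groups did not overlap for 2 members, or 5.41%, against 4.46% of all genes. The precision was such that the 95% interval of 30 members lay within 0.5 of 0 on the log2 scale and that of 36 within 1.

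The 4 members of smallest p are given as values. Kdm5a, the H3K4 demethylase, was 9.91, 10.14, 10.08 and 9.79 in control and 9.67, 9.76 and 9.47 in SSKO basal arrays, so every SSKO value lay below every control value. Control arrays averaged 9.98 ± 0.16 (SD, n = 4) and SSKO arrays 9.63 ± 0.15 (SD, n = 3), a difference of -0.35 with a 95% interval of -0.62 to -0.07 and a limma adjusted p of 1.00. Nsd1 was 10.20, 10.13, 10.34 and 10.21 in control and 10.05, 10.07 and 9.91 in SSKO arrays, without overlap, a difference of -0.21 (95% interval -0.45 to 0.03). Kdm5b was 10.68, 11.00, 11.06 and 10.99 in control and 10.56, 10.77 and 10.77 in SSKO arrays, and the groups overlapped through control array 1. Its difference was -0.23 (95% interval -0.53 to 0.06). Bmi1 was 8.86, 7.74, 8.00 and 8.42 in control and 8.93, 8.50 and 8.83 in SSKO arrays, which overlap. Its difference was 0.50 (95% interval -0.03 to 1.03), the widest interval of the 4. Control arrays 2 and 3 were low for Bmi1, and the difference was 0.33 without array 2 and 0.70 without array 1. Adjusted p values of these 4 genes were all near 1.

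Differences of the remaining members lay between -0.23 and 0.13 in this comparison, with 95% intervals as wide as -0.49 to 0.65 for Kat2b. The H3K4 methyltransferases differed by -0.19 to 0.13 and their core subunits by -0.11 to 0.02. Ezh2 differed by -0.0021 (95% interval -0.35 to 0.34) and Ezh1 by -0.12 (-0.43 to 0.19). Kdm6a and Kdm6b, opposed between luminal and basal cells, differed by -0.15 and 0.05. All 5 KDM4 and KDM2 genes were below 0, between -0.17 and -0.06, as were the 3 measured H3K9 methyltransferases, between -0.23 and -0.09. The acetyltransferases lay between -0.06 and 0.08. The median over members of the deviation from the control mean was -0.14, 0.00, 0.10 and 0.06 in control arrays 1 to 4 and -0.13, 0.01 and -0.06 in SSKO arrays 1 to 3. Control array 1 and SSKO array 1 were thus lowest alike, and these arrays were also the brightest of their groups for endothelial markers, of which 14 of 15 had differences above 0 between SSKO and control arrays although the sort removed CD31-positive cells. The mean level of mature luminal markers did not overlap between SSKO and control basal arrays. Of 14, 13 had differences above 0 between SSKO and control basal arrays, with a median of 0.46, and 7 had an unadjusted p under 0.05. Cited1, named after its value was seen, was the marker called (1.56, limma adjusted p = 0.0103), and its call ended without control basal array 2 (1.51, adjusted p = 0.0568) or SSKO array 3 (1.60, adjusted p = 0.0661). The part of these markers in the members' values was not tested. With the endothelial level as a covariate the member median was -0.03, and 0 members passed.

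**Figure D3:**
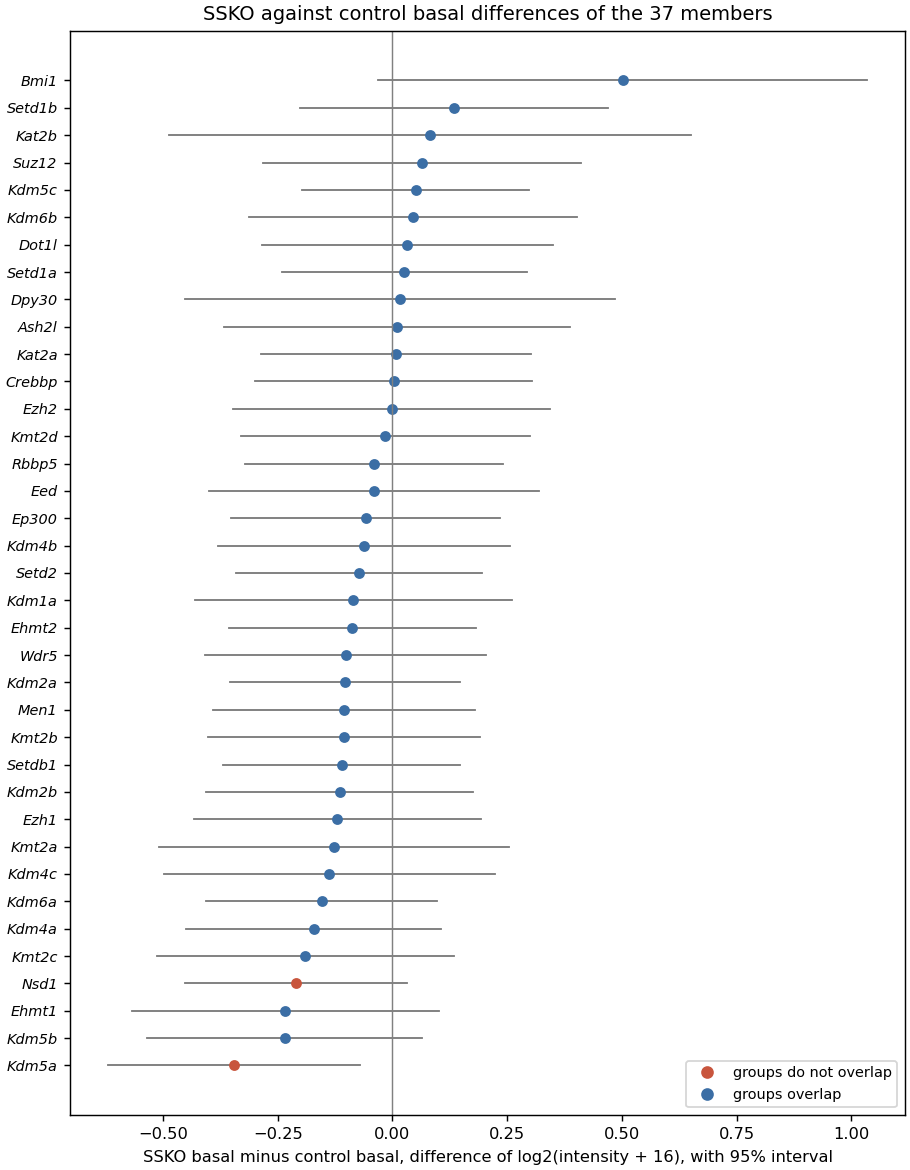
Difference of log2(intensity + 16), SSKO minus control basal, on the horizontal axis for the 37 members on the vertical axis in order of size; lines are 95% intervals of the limma fit (4 control and 3 SSKO arrays), and red points are genes whose groups do not overlap. No member passed the test, and 25 of 37 lie below 0.

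Related enzymes were compared within arrays, because a log2 ratio of 2 probe sets shows whether they changed unequally. For 15 pairs of related members the ratio in luminal or SSKO arrays was set against control basal arrays with a two-sided exact permutation test, which has 35 splits and a smallest p of 0.0286. The ratio of Ezh1 to Ezh2 was higher in luminal arrays by 1.62 ± 0.36 (SD, n = 3; control SD 0.33; exact permutation p = 0.0286). The ratio of Kdm6a to Kdm6b was higher by 1.32 ± 0.37 (exact permutation p = 0.0286). These were the only pairs whose members were called in opposite directions. Setd1a to Setd1b had a difference of -0.73, Kmt2a to Kmt2b of -0.45 and Kmt2c to Kmt2d of -0.28, and Kdm2a to Kdm2b was higher by 0.41, each with an exact permutation p of 0.0286. Those 6 pairs had an adjusted p of 0.0714 over the 15 pairs, so 0 passed. With so few splits a pair could pass only if most of the 15 reached the smallest p. The lack of a pass therefore says little about single pairs. The ratios of Ep300 to Crebbp (0.04, exact permutation p = 0.686) and of Kdm5a to Kdm5b (0.00, 0.971) overlapped between the groups.

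In SSKO basal arrays 2 of the 15 pairs reached the smallest p. Ezh1 to Ezh2 differed by -0.12 (exact permutation p = 0.629) and Kdm6a to Kdm6b by -0.20 (exact permutation p = 0.171). Kdm5b to Kdm5c differed by -0.29 and Kmt2c to Kmt2d by -0.17, without overlap and each with an exact permutation p of 0.0286. Both had an adjusted p of 0.214 over the 15 pairs.

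**Figure D4:**
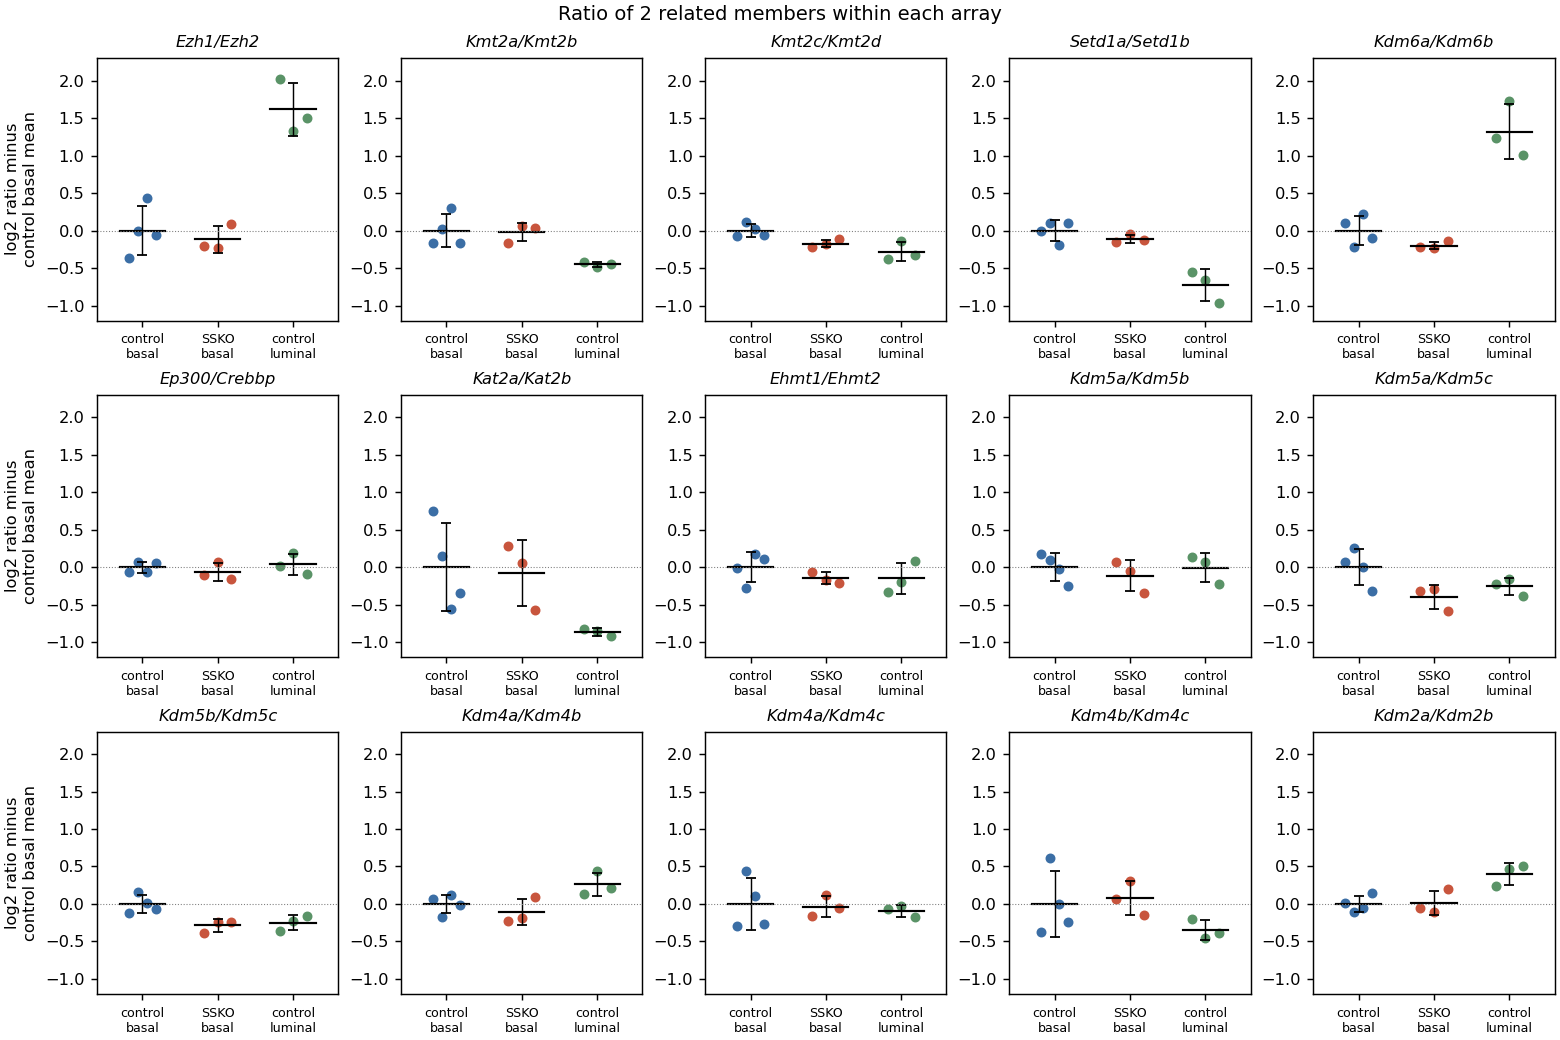
Log2 ratio of 2 related members within each array, minus the mean of control basal arrays, on the vertical axis for 15 pairs, by group on the horizontal axis; points are arrays, lines are means and bars are SD. Ezh1/Ezh2 and Kdm6a/Kdm6b stand highest in luminal arrays, at 1.33 to 2.02 and 1.00 to 1.73.

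Other chromatin genes, 126 measured of 136 listed, place the members in context. Between luminal and control basal cells 33 of them (26.2%) were higher and 28 (22.2%) lower, with a median of 0.02. The 48.4% called was near the 44.3% of all genes, of which 24.6% were higher and 19.7% lower. The histone deacetylases and sirtuins, which remove acetyl groups, had 11 of 16 higher and 3 lower, or 87.5% called, with a median of 0.63. Hdac11 was higher by 1.97 (SE 0.19), Sirt6 by 1.21 (SE 0.19) and Hdac8 by 1.04 (SE 0.21), while Hdac4, Sirt1 and Sirt2 had differences of -0.76, -0.75 and -0.36 and were called lower. The Sirt2 call ended without control basal array 3 or any luminal array (adjusted p up to 0.0991). Of 11 other acetyltransferases 4 were higher and 1 lower, or 45.5% called. Naa60, Kat7 and Kat8 were higher by 0.95, 0.81 and 0.72, and the steroid receptor co-activator Ncoa1 was lower, at -0.64. The deacetylase list had the highest median of the lists.

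A list of lysine demethylases and related genes outside the member list had 0 of 12 higher and 5 lower in luminal cells. That was 41.7% called against 44.3% of all genes, with 11 of 12 below 0 and a median of -0.34. The largest differences belonged to Hr (hairless), at -2.43 (SE 0.36), Riox1, at -1.58 (SE 0.19), and Jmjd6, at -1.21 (SE 0.12). Riox1 and Jmjd6 were listed as related genes, and their action on histone lysines is not taken as established here. Beyond the member list 4 lysine methyltransferases were higher and 2 lower of 16, or 37.5% called. Setdb2, Smyd3 and Kmt5c were higher by 1.00, 0.72 and 0.62, although Setdb2 had a control basal mean of 6.65, under the level of dim probe sets, and Suv39h2, an H3K9 methyltransferase related to the unmeasured member, was lower, at -1.06, as was Prdm2, at -0.49. Among 26 Polycomb partners 5 were higher and 6 lower, or 42.3% called. Pcgf1, Phc3 and Ring1 were higher by 1.13, 1.05 and 0.70, and Yaf2, Pcgf5 and Rybp, subunits of variant Polycomb complexes, had differences of -1.44, -1.10 and -0.94.

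Partners of the H3K4 complexes had 2 of 11 higher and 1 lower, or 27.3% called against 44.3% of all genes. Pagr1a and Ncoa6, subunits of the KMT2C and KMT2D complexes, were higher by 0.74 and 0.60, and Wdr82, a subunit of the SETD1 complexes, was lower, at -0.74. Of 20 readers of methylated H3, 3 were higher and 6 lower, or 45.0% called. Pygo1, the relative of Pygo2, had the largest difference of the list at -2.66 (SE 0.12), with a luminal mean of 6.31 that lay under the level of dim probe sets, 6.74, so its full size is not known. Chd1 and L3mbtl3 were lower, at -1.15 and -0.71, and L3mbtl2, Ing4 and Phf20 were higher by 0.61, 0.56 and 0.44. Arginine methyltransferases had 2 of 8 higher and 1 lower, or 37.5% called, with Prmt2 and Prmt7 at 0.86 and 0.77 and Prmt6 at -0.93. DNA methylation enzymes had 5 of 6 called, or 83.3%, with 2 higher, the maintenance enzyme Dnmt1 by 0.70 and Tet3 by 0.63, and 3 lower, Tet1 at -2.01, Dnmt3b at -0.93 and Dnmt3a at -0.44. Without luminal array 3 the calls of L3mbtl2, Phf20 and Tet3 ended, and Tet3 also missed without control basal array 1. The Dnmt3a call ended without 8 of the 10 arrays in turn, all but control basal array 1 and luminal array 3.

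In SSKO basal cells 1 of these 126 genes was called, Pygo2 itself (-2.34, SE 0.32, limma adjusted p = 0.0441), and 2 had an unadjusted p under 0.05. The Pygo2 call ended without control basal array 1, 2 or 4, SSKO array 2 or 3, or luminal array 1 or 3, with differences of -2.44 to -2.14 and adjusted p up to 0.362. Differences below 0 were found for 86 of 126, or 68.3%, against 67.6% of members and 47.9% of all genes. The share of all genes was not matched for brightness. The genes of smallest p in each list were below 0 in most lists, with Kmt5b at -0.28, Tet2 at -0.25, Hcfc2 at -0.23, Aebp2 at -0.23, Kdm3b at -0.21, Kat6a at -0.17 and Prmt6 at -0.13, while Hdac9 was at 0.20.

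**Figure D5:**
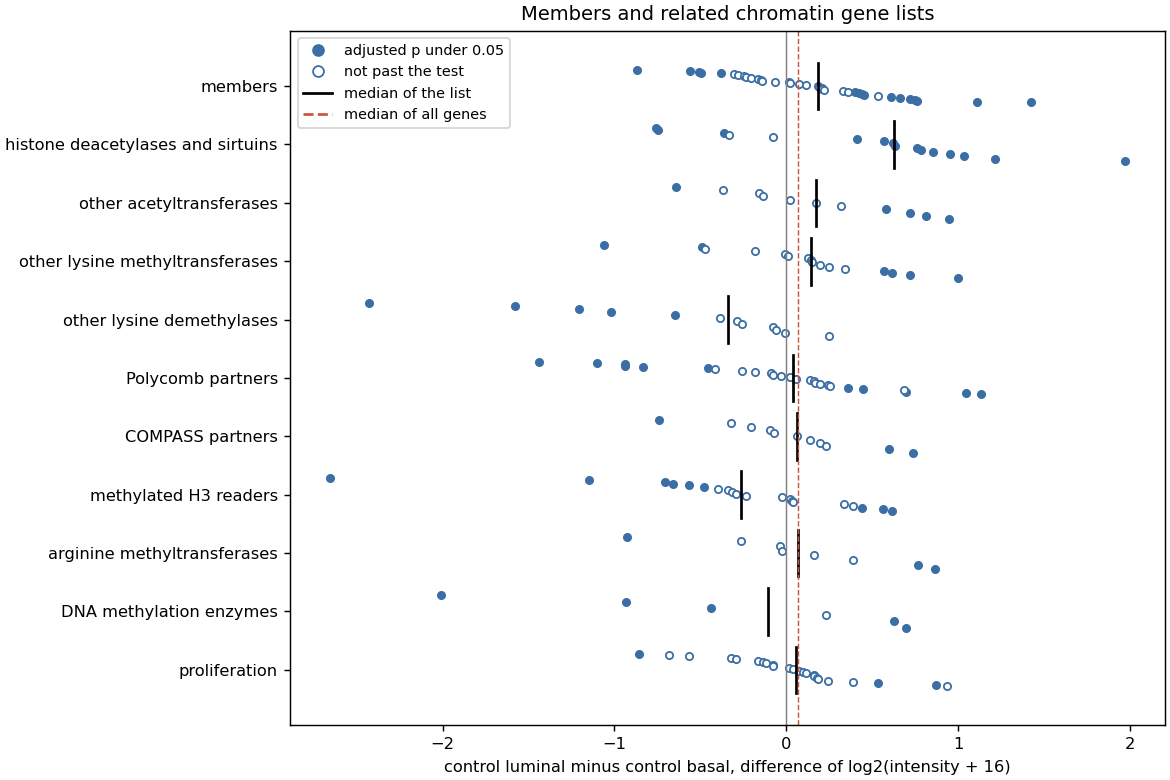
Difference of log2(intensity + 16), control luminal minus control basal, on the horizontal axis for each measured gene of the members and of 10 related lists on the vertical axis; filled points passed the test, black bars are list medians and the dashed line is the median of all 15815 genes, 0.07. The deacetylase and sirtuin median stands at 0.63 and that of the list named other lysine demethylases at -0.34.

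The genes most like the members at either end were sought over the 10 arrays by Pearson correlation, given as a description, since the arrays share the split of luminal from basal cells. Bmi1 was followed most closely by Srp14 (r = 0.991), Gtf2h3 (0.984) and Cers2 (0.982), and 551 genes had an r over 0.9 with it. Kdm6b was followed by Zc3h18 (0.993), Lats2 (0.992) and Pom121 (0.991), and 1226 genes had an r over 0.9 with it.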

How the data were processed

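The authors deposited linear intensities, 1 per probe set, for 10 arrays. Affymetrix Expression Console 1.1 and PLIER 2.0 are named in the submitters' processing notes, with no role for either. How arrays were normalized is not stated there. Array medians lay between 205.5 and 228.5. No background estimates or detection calls were used, so a low value is a low signal, and the number of arrays limits the precision. Of 28815 probe sets, 21780 had 1 gene symbol in the platform annotation, 1605 several and 5430 none, and only the first were named. Values became log2(intensity + 16), the dimmest 25% of probe sets (mean under 6.74) were left out, and the brightest probe set stood for each gene, which left 15815 genes. Group means of all 10 arrays were fitted with limma 3.58.1 (lmFit, eBayes) in R 4.3.3, two-sided, with Benjamini-Hochberg adjustment over all genes. Pair ratios were tested by exact permutation. The members, gene lists, pairs and promoter motifs were chosen with earlier results of these data known. All measured members could be named, with values per array for those called in any comparison and the 4 of smallest p in SSKO cells, and related genes by size of their luminal difference. On simulated data for 15815 genes, 14% of differences of 0.5, 78% of 1 and 98% of 2 were recovered in the SSKO comparison, and 16%, 74% and 92% in the luminal comparison. Few genes were changed in the simulation, whereas 44.3% of all genes were called between luminal and control basal cells. Its luminal shares therefore do not give the power of that comparison. More genes were changed in the simulation than the 6 called between SSKO and control basal cells. The threshold on p was therefore stricter in the real SSKO comparison, and the simulated SSKO shares are likely too high for it. The simulation also gave 12 false calls in the SSKO and 4 in the luminal comparison. Replicate numbers were tried as a block over the arrays of all 3 groups. Plots used Python 3.11.15 and matplotlib 3.10.9.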

Additional observations from a re-analysis of the deposited data

Results flagged for a closer look

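In 3 of the 37 members a single control basal array stood far from the other 3 of its group, and chance alone flags about 1 in 20 groups. Setd2 was 10.91 in control array 4, against 10.75 to 10.77 in the others. Kdm4c was 7.73 in control array 2, against 8.27 to 8.30. Ep300 was 11.27 in control array 1, against 11.54 to 11.59.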

How the results depend on the processing

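Of 32 calls of single members in the luminal comparisons, 19 held in every one of the 22 alternatives, and none reversed. Against control basal cells, Bmi1, Ezh1, Ehmt1, Ehmt2, Kdm4a, Kdm4c, Kdm5c, Kdm6a, Kdm6b, Men1 and Wdr5 held throughout. When each array was left out in turn, higher members numbered 8 to 11 and lower members 3 to 6 against control basal cells, the lowest count of lower members coming without luminal array 1. Against SSKO basal cells they numbered 9 to 15 and 1 to 5. There the lower members were 5 with log2(intensity + 64), with the dimmest 50% of probe sets left out and after quantile normalization, and 6 with array weights, while higher members were 8 with the endothelial level as a covariate. Over all genes, 6 were called between SSKO and control basal cells, against 27 without SSKO array 2, 2 without control basal array 2, 1 without SSKO array 3 and 3 after quantile normalization. In SSKO basal cells 0 members passed in any alternative, and the member median stayed between -0.12 and -0.03. Of 65 calls of related genes, 53 held throughout. With all arrays kept, no pair ratio passed under any alternative scale, filter, normalization or probe set rule. A pass there again needed most pairs at the smallest p, so this says little about stability. Without an array of either group compared, the exact test has too few splits for any pair to pass. The 0 pairs that passed there say nothing about stability. Leaving out an array of the third group, or changing only the fit, does not enter the pair test. Same-numbered control and SSKO arrays had correlated deviations of 0.63, 0.46 and 0.05. Unlike-numbered ones had -0.44 to 0.43, highest for control array 4 with SSKO array 3. Same-numbered control basal and luminal arrays had -0.08, -0.08 and -0.06, and unlike-numbered ones -0.31 to 0.39. The main fit did not pair the arrays, and pairings of unlike numbers were not tested. With the replicate block, which took in the luminal arrays too, 9 members were higher and 4 lower against control basal cells. In SSKO cells 0 passed. Ezh2 (-0.48, adjusted p = 0.0594), Kdm4b (0.37, 0.117) and Setd1b (0.40, 0.0636) then missed the threshold. In the SSKO comparison, differences under 0.5 on the log2 scale would mostly be missed with these arrays, and larger ones may be missed as well. Between luminal and control basal cells some differences under 0.5 were called, such as those of Kdm6a (0.45) and Kdm5c (0.44).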
